A study of Mus musculus with 6 samples.

Results

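This account concerns 35 genes of macrophages, the phagocytes that live in fat, across brown, subcutaneous and epididymal fat of male mice with and without the histone demethylase Kdm4b. The genes were listed by name, and each was read from its brightest probe set over the 6 arrays, among probe sets annotated with 1 gene symbol. All 35 were found among the 18194 genes so named on the array. They were divided by known role into 12 core genes, 6 genes of resident macrophages, 10 scavenging, Fc receptor and phagocytosis genes, and 7 genes of lipid-associated macrophages. The groups were brown (BAT), subcutaneous (SubQ) and epididymal (Epi) fat from Kdm4b KO mice, which lacked the gene in the whole body, and the same depots from wildtype (WT) mice. All mice were 2 months old, lived on chow at room temperature and had been fasted for 6 hours. Each depot and genotype had 1 array. The sources used here give neither the number of mice behind a sample, nor whether depots came from the same mice, nor the exons deleted.

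Tissue macrophages depend on the growth factor receptor encoded by Csf1r and on the transcription factor PU.1, the product of Spi1. Perivascular resident macrophages carry the mannose receptor Mrc1, the haemoglobin scavenger receptor Cd163, the hyaluronan receptor Lyve1 and the folate receptor Folr2. In obese fat, macrophages around dying adipocytes take on a lipid-associated state marked by Trem2, a lipid-sensing receptor that signals through the adaptor Tyrobp, and by the lysosomal glycoprotein Gpnmb.

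Signals are Affymetrix MAS5 intensities, scaled by the authors to the same trimmed mean on every array. A floor was set at a signal of 63.2, and values at or under it carry no order. Between 12639 and 13594 of the 18194 genes lay above the floor on an array. With so few arrays, their number sets the precision. Within a depot the error at hand is the SD between probe sets of 1 gene, 0.325 in brown, 0.322 in subcutaneous and 0.305 in epididymal fat on the log2 scale, and it leaves out the spread between mice. Kdm4b, measured by 1 probe set, had signals of 95.2 in KO and 135 in WT brown fat, 157 in KO and 272 in WT subcutaneous fat, and 188 in KO and 227 in WT epididymal fat. Its log2 differences were -0.50, -0.80 and -0.27 in that order. The epididymal one lies within the SD between probe sets, so these arrays do not show the loss of Kdm4b there beyond that error. Marker lists of the depots were chosen with earlier results of these data known. Of brown adipocyte genes 6 of 6 rose in brown against white fat, where 21.6% of all genes tested did. Of mesothelial genes 7 of 7 fell in subcutaneous against epididymal fat, where 1.16% of all genes tested did (limma adjusted p under 0.05).

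**Figure D1:**
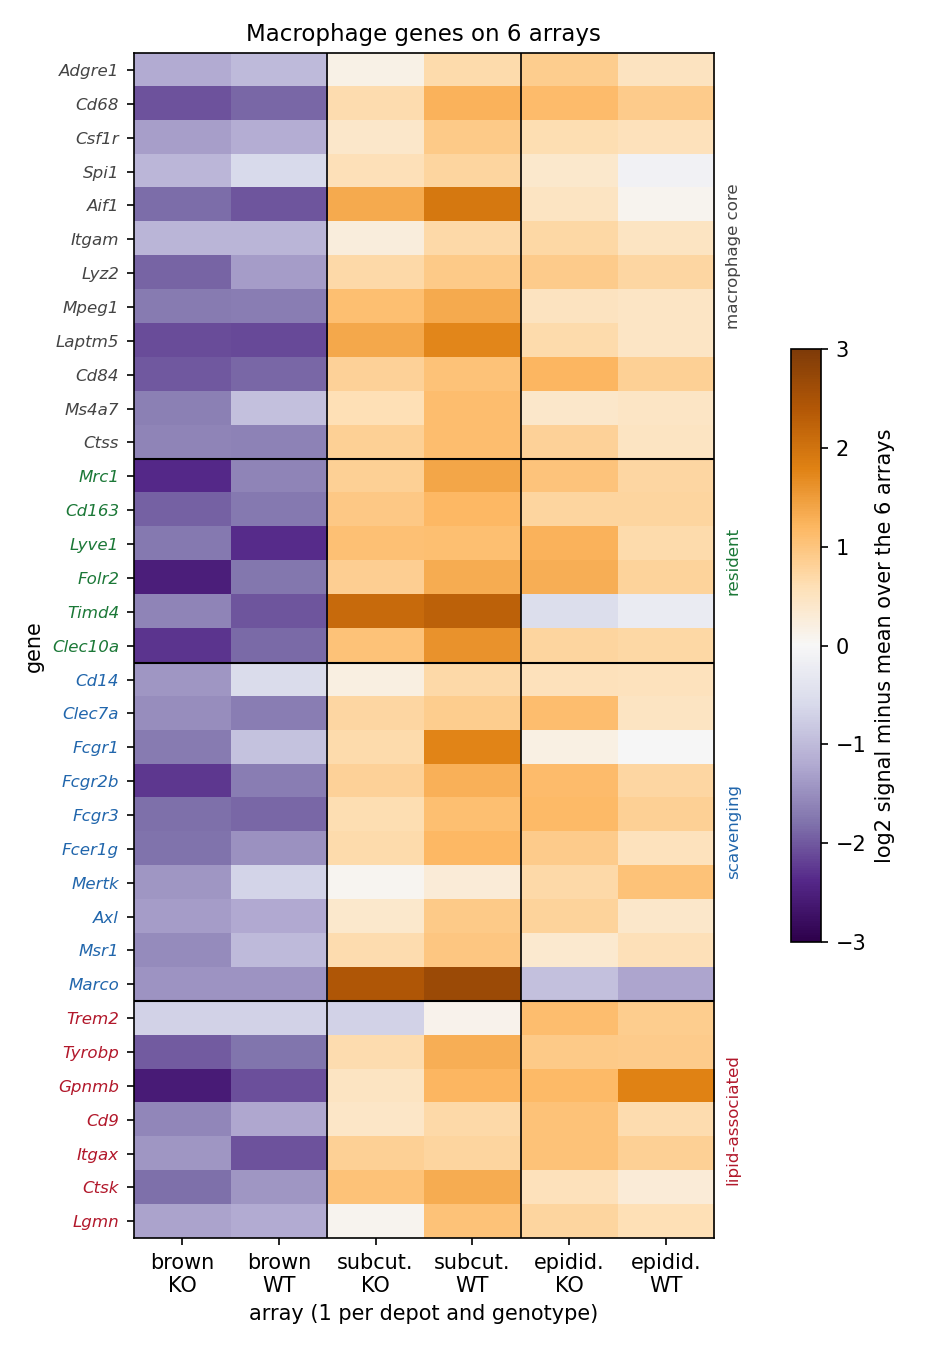
Log2 signal of each macrophage gene (rows, by role) on each of the 6 arrays (columns), after the floor, minus that gene's mean over the arrays. Both brown-fat columns lie below the white-fat columns for 34 of 35 genes, and Timd4 and Marco stand out in the subcutaneous columns.

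Macrophage transcripts were far lower in brown than in white fat. All 35 genes fell in brown fat, set against the average white depot (limma adjusted p between 0.000436 and 0.0169). Among the 13233 genes tested 31.1% fell, and 21.6% rose, while none of the 35 did. The median log2 difference was -2.44, a 5.42-fold lower level, against -0.11 over all genes tested. Every array was scaled to the same trimmed mean, so signals are relative to the other RNA of a sample. Fewer macrophages, less RNA per macrophage and more RNA from other cells cannot be told apart in such bulk samples. The part of each was not tested. In 34 of 35 genes both brown arrays lay below all 4 white arrays, as for 33.9% of all genes tested, and the exception was Trem2. In 0 of 35 both lay above all 4 white arrays, where 26.1% of all genes did.

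Among core genes, Cd68, a lysosomal protein gene of macrophages, had signals of 243 in KO and 271 in WT brown fat, 1571 in KO and 2375 in WT subcutaneous fat, and 2199 in KO and 1876 in WT epididymal fat. Its brown minus white difference was -2.95 ± 0.20 (SE, limma adjusted p = 0.000541, 2 against 4 arrays). Adgre1, which encodes the surface antigen F4/80, had 439 in KO and 506 in WT brown fat, 1113 in KO and 1588 in WT subcutaneous fat, and 1841 in KO and 1421 in WT epididymal fat. The 2 genes share an order in which the brown arrays are lowest and the white arrays of KO and WT mice trade places between the white depots. Csf1r fell by 1.86 ± 0.16 (SE, limma adjusted p = 0.000879) on the log2 scale, and its signals were 2528 in KO and 2855 in WT brown fat, against 8421 to 11992 on the white arrays. Lyz2, the macrophage lysozyme gene, had 2232 in KO and 3297 in WT brown fat, against 13556 to 15795 on the white arrays. Spi1 had the smallest core difference, -1.21 ± 0.22 (SE, limma adjusted p = 0.00851), a call lost without the KO brown array (-0.91, adjusted p = 0.059) and with no filter on low signals (adjusted p = 0.0871). Itgam, the integrin chain CD11b, lay under the floor on both brown arrays, so that its difference of -1.58 there is at least that large.

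The resident genes had the lowest brown-fat levels relative to white fat of the 4 roles, with a median difference of -3.02 (8.12-fold lower) and a range from -3.20 to -2.73. Medians were -2.43 for core, -2.06 for scavenging and -2.41 for lipid-associated genes, and the difference between roles was not tested. Folr2 had signals of 247 in KO and 418 in WT brown fat, 2550 in KO and 3548 in WT subcutaneous fat, and 3499 in KO and 2424 in WT epididymal fat, a brown minus white difference of -3.20 ± 0.29 (SE, limma adjusted p = 0.000947). Clec10a, a galactose-type lectin gene, differed by -3.11 and Mrc1 by -2.98. Timd4 differed by -2.73, with mean signals of 73.3 in brown, 200 in epididymal and 1186 in subcutaneous fat. Gpnmb, a lipid-associated gene, had the largest difference of all, -3.48 ± 0.13 (SE, limma adjusted p = 0.000436), with 42.4 in KO and 88.5 in WT brown fat, 517 in KO and 865 in WT subcutaneous fat, and 828 in KO and 1301 in WT epididymal fat. Because the KO brown array lay under the floor, the 11.1-fold lower level is at least that large. Trem2 had the smallest difference, -1.05 ± 0.24 (SE, limma adjusted p = 0.0169), and the probe set used lay under the floor on both brown arrays and on the KO subcutaneous array. A second, dimmer Trem2 probe set was above the floor only on the KO brown array, at 91.8 in KO and 45.6 in WT brown fat, against the direction of the first. The Trem2 call was lost with the mean of both probe sets (-0.39, limma adjusted p = 0.113), with either brown array left out (0.0606 without KO and 0.115 without WT) and with no filter on low signals (0.127). Among scavenging genes the differences ran from -1.48 for Cd14, the endotoxin co-receptor gene, to -2.96 for the inhibitory Fc receptor gene Fcgr2b.

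The remaining core genes behaved alike in brown fat. Ctss, the antigen-processing protease cathepsin S, had signals of 1361 in KO and 1320 in WT brown fat, 7289 in KO and 8943 in WT subcutaneous fat, and 7205 in KO and 5706 in WT epididymal fat (brown minus white -2.42). Mpeg1, a pore-forming protein gene of macrophages, had 694 in KO and 702 in WT brown fat, 4748 in KO and 5724 in WT subcutaneous fat, and 3167 in KO and 3079 in WT epididymal fat (-2.53). For both genes the brown arrays of KO and WT mice lay close together and far under the white ones. On the log2 scale the differences were -2.92 for the cell adhesion receptor gene Cd84, -2.89 for Aif1 and -1.93 for the membrane protein gene Ms4a7.

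Among scavenging genes, Fcer1g, the signalling chain shared by Fc receptors, had 494 in KO and 621 in WT brown fat, 2729 in KO and 3874 in WT subcutaneous fat, and 3184 in KO and 2453 in WT epididymal fat (-2.44). The IgG receptor genes Fcgr3 and Fcgr1 differed by -2.77 and -1.95, and Clec7a by -2.39. Axl and Mertk, related receptors that bind dying cells through bridging proteins, differed by -1.91 and -1.56. The scavenger receptor genes Msr1 and Marco differed by -1.90 and -2.17, with Marco under the floor on both brown arrays. The Marco difference rests mostly on subcutaneous fat, with a mean signal of 1005 there against 80.5, near the floor, in epididymal fat. Of the lipid-associated genes, Tyrobp had 585 in KO and 687 in WT brown fat, 3620 in KO and 5680 in WT subcutaneous fat, and 4384 in KO and 4331 in WT epididymal fat (-2.81). Itgax differed by -2.60, the collagen-degrading protease gene Ctsk by -2.41, the tetraspanin gene Cd9 by -2.11 and Lgmn by -1.86. The brown arrays lay below every white array for each of these genes.

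Other genes of the same cells followed in part. Of 24 further macrophage genes 17 fell in brown against white fat, among them the complement genes C1qa (-2.57), C1qb (-2.77) and C1qc (-2.82). Another 4 rose (Ctsd, Lipa, Lpl and Pla2g7, of which Lpl is also made by adipocytes), and Cd36, Ctsb and Hmox1 were called in neither direction. The macrophage growth factor gene Csf1 fell by 2.41 (limma adjusted p = 0.000689). Stromal and lymphoid genes were lower in brown fat too, where 31.1% of all genes tested fell. All 8 of 8 fibroblast and precursor genes fell, with a median of -1.68. Of the B cell genes 10 of 11 fell, with a median of -2.60. The white mean includes subcutaneous fat, where 9 of 11 B cell genes were higher than in epididymal fat. Against epididymal fat alone B cell genes varied. Ighm had mean signals of 696 in brown and 14087 in epididymal fat, and Cr2 66.0 and 63.2, the floor. The macrophage result stayed as large within each genotype, with medians of -2.43 on the KO arrays and -2.35 on the WT arrays. Laptm5, a lysosomal membrane protein gene of blood cells, depended on its probe set, and fell by 3.17 with the one used. Without probe sets that can cross-hybridise only a dim one is left, which was 0.43 higher in brown fat. That dim probe set had 104 in KO and 87.9 in WT brown fat. Every other Laptm5 probe set was lower on both brown arrays than on all white arrays.

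**Figure D2:**
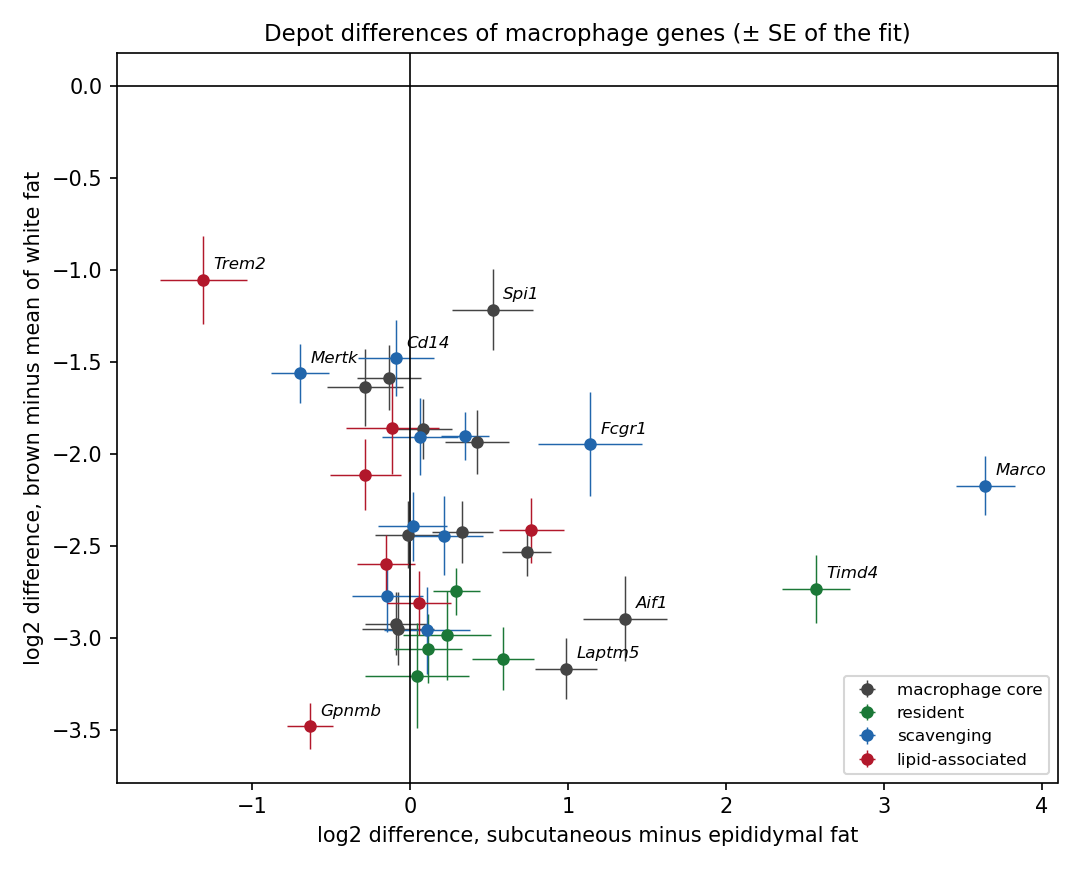
Log2 difference between brown fat and the mean of the white depots (vertical) against the difference between subcutaneous and epididymal fat (horizontal) for the 35 genes, coloured by role, with the SE of the limma fit as bars. Every gene lies below 0 on the vertical axis, and Marco at 3.64 and Timd4 at 2.57 lie far right of the others.

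Between the white depots, Timd4 and Marco rose in subcutaneous against epididymal fat, 2 of 35 genes where 3.88% of all genes tested rose. None of the 35 fell, where 1.16% of all genes did. Timd4, a phosphatidylserine receptor of resident macrophages that bind dying cells, had signals of 1125 in KO and 1250 in WT subcutaneous fat, against 182 in KO and 220 in WT epididymal fat. Marco, a scavenger receptor known from macrophages of the splenic marginal zone and of lymph nodes, had 925 in KO and 1093 in WT subcutaneous fat, against 90.1 in KO and 71.8 in WT epididymal fat. The 2 depots do not overlap for either gene, and both subcutaneous arrays lay above both epididymal arrays in 26.4% of all genes tested. Marco was 12.5-fold (limma adjusted p = 0.00316) and Timd4 5.93-fold higher (limma adjusted p = 0.00691). The call for Timd4 was lost with either epididymal array left out, at a limma adjusted p of 0.067 without KO and 0.0606 without WT, and with the floor at the 20th percentile (0.0569), and both calls were lost with no filter on low signals.

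Lymphocyte genes moved with this pair. Of 11 B cell genes 9 rose in subcutaneous against epididymal fat with a median of 3.47, and of 8 T cell genes tested 7 rose with a median of 3.0. Summed signals of the T cell genes were 10067 in KO and 11318 in WT subcutaneous fat, against 820 in KO and 961 in WT epididymal fat, where 3 of 10 T cell genes were at or under the floor on both arrays. Subcutaneous fat pads of mice can hold lymph nodes, and the part of such tissue in the Timd4 and Marco result was not tested. Of the further macrophage genes, the chemokine gene Ccl8, the fractalkine receptor gene Cx3cr1 and Ms4a6c rose in subcutaneous fat, by 1.91, 1.13 and 1.13 on the log2 scale (limma adjusted p = 0.0374, 0.0351 and 0.0396).

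The other 33 genes spread around a median of 0.06 and did not pass the test. The largest of these differences belonged to Aif1, the calcium-binding protein IBA1, at 1.36 ± 0.27 (SE, limma adjusted p = 0.0617), Trem2 at -1.31 and Fcgr1, the high-affinity IgG receptor gene, at 1.14. In 13 of the 35 genes, Timd4 and Marco among them, both subcutaneous arrays lay above both epididymal arrays, as in 26.4% of all genes tested. Mertk, Trem2 and Itgax lay lower in both subcutaneous arrays, 3 of 35 where 26.0% of all genes did. Mertk, a receptor for the uptake of dying cells, had 915 in KO and 1063 in WT subcutaneous fat, against 1402 in KO and 1813 in WT epididymal fat. Median centring of the arrays puts the median of all tested genes in this comparison at -0.33 and that of the 35 genes at -0.26, against 0.08 for the 35 genes with the authors' scaling, so the direction of small differences is not settled. Of all genes called between the white depots 76.9% rose in subcutaneous fat with the authors' scaling, 61.9% with quantile normalization, and 27.1% when arrays were centred on their medians.

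In subcutaneous fat nearly every macrophage gene was lower in the KO array. Of 35 genes 34 were lower, where 45.3% of 13857 measured genes were lower. Itgax, the integrin chain CD11c, was the 1 gene higher in KO, at 0.06, where 54.7% of all genes were higher. The median log2 difference was -0.46, against 0.04 over all measured genes. By more than the SD between probe sets 21 genes were lower and 0 higher, where 12.7% and 19.3% of all genes were. A depot has a single array per genotype, so these differences carry no test. Of the other probe sets of these genes 13 of 16 went the same way as the one used in subcutaneous fat, 8 of 13 in epididymal and 6 of 13 in brown fat.

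Fcgr1 was the 1 gene of 35 at least 2-fold lower, where 0.722% of all genes were, and none was 2-fold higher, where 2.2% were. Its signal was 328 in KO and 695 in WT subcutaneous fat (2.12-fold). Its second probe set gave 218 in KO and 223 in WT subcutaneous fat, a difference of -0.03, so the size rests on 1 probe set. Lgmn, the lysosomal protease legumain, followed with 1429 in KO and 2763 in WT subcutaneous fat, 1.93-fold lower. Trem2 was at least 1.74-fold lower, from a KO signal of 48.6, under the floor, and a WT signal of 110. Tyrobp had 3620 in KO and 5680 in WT subcutaneous fat (1.57-fold), and Gpnmb was 1.67-fold, Cd68 1.51-fold lower, with Aif1 at -0.59 on the log2 scale. Of the 7 genes at least 1.5-fold lower, where 3.74% of all genes were, 4 were lipid-associated (Trem2, Tyrobp, Gpnmb and Lgmn), 2 core and 1 scavenging, and 0 were 1.5-fold higher, where 8.71% were. The lipid-associated genes had the lowest median of the roles, -0.65, against -0.46 for scavenging, -0.41 for core and -0.35 for resident genes, a difference between roles that was not tested. The lipid-associated genes did not move alike, with Cd9 at -0.26, Ctsk at -0.29 and Itgax at 0.06, and the other 4 between -0.95 and -0.65.

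**Figure D3:**
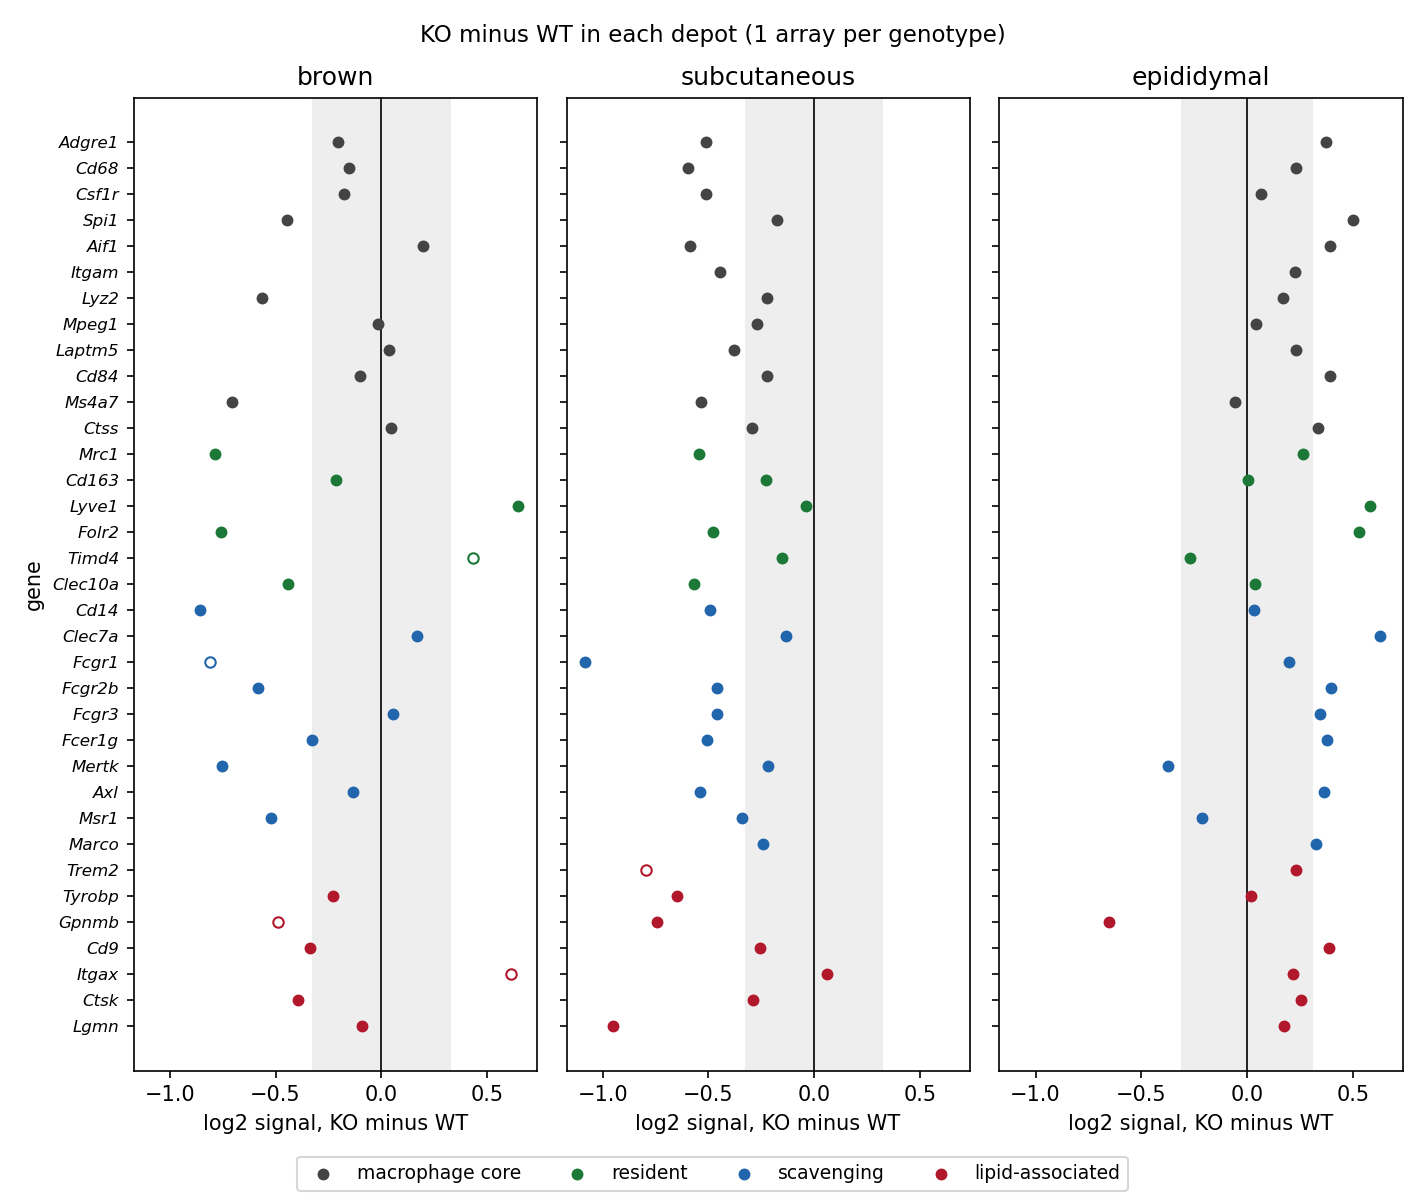
Log2 difference between the KO and the WT array for each macrophage gene in brown, subcutaneous and epididymal fat. Hollow points have 1 array at or under the floor, genes under the floor on both arrays are left out, and the grey band is the SD between probe sets (0.325, 0.322 and 0.305); in subcutaneous fat 34 of 35 points lie below 0, in epididymal fat 30 of 35 lie above it.

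In epididymal fat the direction was the opposite for most genes. There 30 of 35 were higher in the KO array, where 46.7% of 13225 measured genes were higher, with a median of 0.23 against -0.02 over all genes, and 5 were lower, where 53.3% of all genes were. By more than the SD between probe sets 14 genes were higher, where 14.6% of all genes were, and 2 lower, where 19.2% of all genes were. No gene reached 2-fold in either direction, where 0.87% of all genes did upward and 1.41% downward. Clec7a, the fungal glucan receptor dectin-1, was highest, with 1615 in KO and 1043 in WT epididymal fat (1.55-fold), the 1 gene of 35 at least 1.5-fold higher, where 4.37% of all genes were. Gpnmb was the 1 gene as much lower, where 6.5% were. Lyve1 had 4774 in KO and 3187 in WT epididymal fat (0.58 on the log2 scale), and Folr2 was 1.44-fold and Spi1 1.42-fold higher. The 5 genes lower in KO were Gpnmb (-0.65), Mertk (-0.37), Timd4 (-0.27), Msr1 (-0.21) and Ms4a7 (-0.06), 2 of them from the scavenging role and 1 from each of the others. Msr1, the class A scavenger receptor gene, had 2 dimmer probe sets that went the other way, by 0.55 and 0.68.

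Together, 29 of 35 genes were higher in KO epididymal and lower in KO subcutaneous fat, where 17.4% of 12802 genes measured in both depots were, and 0 had the reverse pattern, where 23.3% of all genes did. The genes share their arrays and are not independent of each other. On the WT arrays 31 of 35 genes were higher in subcutaneous than in epididymal fat, with a median gap of 0.42, where 5967 of all 13233 genes tested were, with a median of -0.02. On the KO arrays 13 of 35 were, with a median gap of -0.22, where 7006 of all 13233 genes were, with a median of 0.03. All 12 core and all 6 resident genes were higher in subcutaneous fat on the WT arrays, against 6 of 12 and 3 of 6 on the KO arrays. Timd4 kept its gap, with 2.63 on the KO and 2.51 on the WT arrays.

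The difference between the depots was tested gene by gene in a limma fit with 1 residual degree of freedom, a fit chosen after these values were seen. Its error rests on the gap between the KO minus WT difference in brown fat and its white mean, not on a spread between mice. The KO minus WT difference was lower in subcutaneous than in epididymal fat for 33 of 35 genes, and the median over the 35 was -0.63. The exceptions were Timd4 and Mertk, and the same direction was found for 44.6% of all genes measured. At an adjusted p under 0.05 limma called 0 of 35, as it called 0.0% of all genes in either direction, with 3 genes of the 35 and 479 of all 13233 at an unadjusted p under 0.05. Among the 35, Fcgr1 differed by -1.28, Lgmn by -1.13, Trem2 by -1.03 and Folr2 by -1.01. The second probe set of Fcgr1 went the other way, with KO minus WT differences of -0.03 in subcutaneous and -0.48 in epididymal fat.

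**Figure D4:**
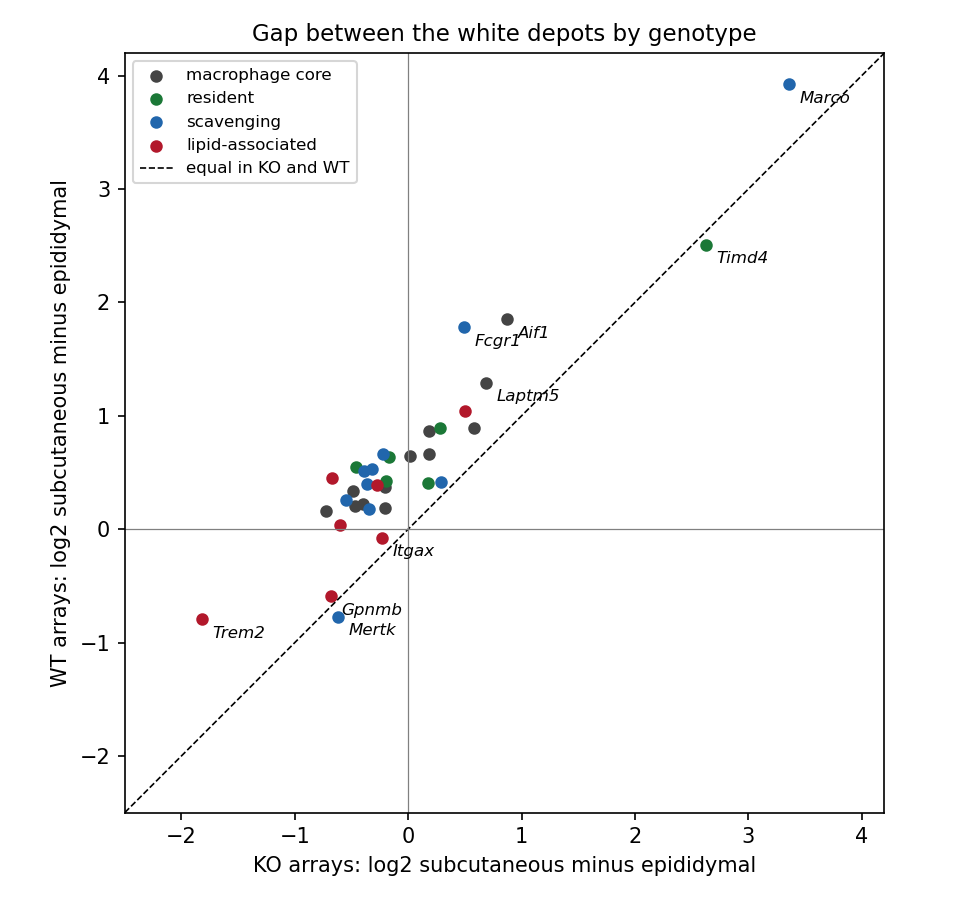
Log2 gap between subcutaneous and epididymal fat on the WT arrays (vertical) against the gap on the KO arrays (horizontal), 1 point per macrophage gene, with a dashed line where the gaps are equal. Of the 35 points 33 lie above the line, and Timd4 and Mertk lie on its other side.

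In brown fat 24 of 32 measured genes were lower in the KO array, where 53.6% of 13779 measured genes were lower, with a median of -0.22 against -0.03 over all genes. The other 8 were higher, where 46.4% of all genes were. The probe sets used for Itgam, Marco and Trem2 were under the floor on both arrays. By more than the SD between probe sets 15 genes were lower, where 20% of all genes were, and 3 higher, where 13.6% were. No gene reached 2-fold, where 2.43% of all genes did downward and 1.1% upward. At 1.5-fold 6 were lower and 2 higher, where 8.85% and 4.82% of all genes were. Cd14 had 289 in KO and 523 in WT brown fat (1.81-fold lower), Mrc1 390 in KO and 672 in WT brown fat (1.72-fold lower), and Folr2 and Mertk were 1.69-fold lower each. The scavenging genes had the lowest median, -0.52, against -0.33 for resident, -0.28 for lipid-associated and -0.15 for core genes.

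Resident genes parted in brown fat. Lyve1 was 1.57-fold higher, with 610 in KO and 389 in WT brown fat, and its second probe set gave 222 in KO and 96.3 in WT brown fat. Timd4 was at least 1.35-fold higher, while Mrc1, Folr2, Clec10a and Cd163 were lower. Lyve1 is also made by lymphatic endothelium, whose other 4 measured genes had a median of -0.21 in brown fat, with 1 higher in KO. Itgax was at least 1.53-fold higher in KO brown fat, from a KO signal of 96.7 and a WT signal under the floor.

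Over the 3 depots, 4 of 32 genes were lower in every KO array (Gpnmb, Mertk, Msr1 and Ms4a7), where 17.2% of all genes measured in the 3 depots were, and 1 (Itgax) was higher in each, where 16.2% were. Neither share exceeds that of all genes. Gpnmb had the largest mean log2 difference, -0.63 with an SD of 0.13 (n = 3 depots), its brown difference being a bound. In the limma fit with depot and genotype as terms, none of the 35 genes was called for genotype (0 of 35; lowest adjusted p 0.46, for Gpnmb at -0.63 ± 0.12 SE, lower in 3 of 3 depots), as 0.0% of all genes were in either direction. The same 4 genes had an unadjusted p under 0.05, with 1102 of 13233 genes in all. The depots take the place of replicates in that fit. Limma also tested whether the genotype difference differed between brown and white fat. Its error there rests on the gap in that difference between the white depots. It called 0 of 35 genes (smallest limma adjusted p = 0.626), as it called 0.0% of all genes in either direction. At an unadjusted limma p under 0.05 were 0 of the 35 and 1079 of all 13233 genes.

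Ligands and recruiting signals of macrophages were read from a list of 10 genes. The chemokine genes Ccl2 and Ccl7, which draw monocytes through the receptor Ccr2, were at least 2-fold higher in KO epididymal fat. They were 2 of 9 measured there, where 0.87% of all genes were as much higher. Ccl2 had 672 in KO and 295 in WT epididymal fat (2.28-fold), and Ccl7 had 362 in KO and 177 in WT epididymal fat (2.05-fold). In subcutaneous fat Ccl2 differed by 0.07 and Ccl7 by -0.24 on the log2 scale. Ccr2 followed the members, with differences of -0.67 in brown, -0.51 in subcutaneous and 0.51 in epididymal fat. The growth factor gene Csf1 differed by -0.54, -0.21 and 0.21 in the same depots, and Il34, the other ligand of the receptor, by -0.27, 0.52 and 0.26. Among further macrophage genes the haem oxygenase gene Hmox1 was 2.85-fold higher in KO brown fat, with 252 in KO and 88.2 in WT. It was the 1 of 23 measured at least 2-fold higher there, where 1.1% of all genes were.

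Lists for other cells were read on the same arrays. The monocyte list went the way of the 35 genes, with medians of -0.20 in brown, -0.36 in subcutaneous and 0.46 in epididymal fat. Fibroblast and precursor genes were lower in KO for 8 of 8 in brown (median -0.48) and 8 of 8 in subcutaneous fat (-0.32), with 0.07 in epididymal fat. B cell genes had medians of -0.16, -0.06 and -0.37, and T cell genes of -0.27, -0.22 and -0.10, in the same order. Mast cell genes had medians of -0.39, -0.49 and -0.56, and neutrophil genes of -0.49, 0.86 and 0.07. Skeletal muscle genes had medians of -4.31 in brown, 0.27 in subcutaneous and -1.36 in epididymal fat, and seminal vesicle genes of 0.38, -1.99 and -0.64. The summed signal of 11 muscle genes was 941 in KO and 20136 in WT brown fat, 69924 in KO and 58886 in WT subcutaneous fat, and 2365 in KO and 5793 in WT epididymal fat. The part of these tissues and cells in the macrophage differences was not tested.

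**Figure D5:**
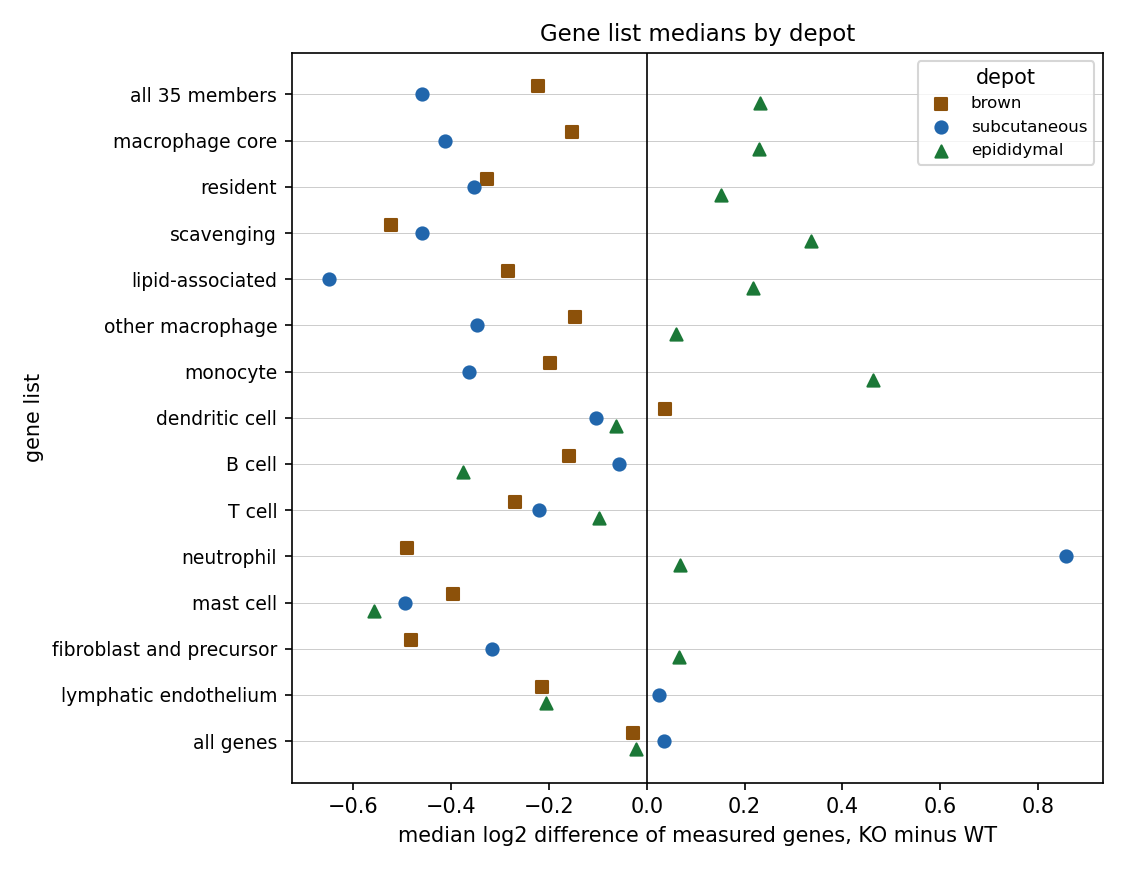
Median log2 difference between KO and WT of the measured genes of each list in brown (squares), subcutaneous (circles) and epididymal fat (triangles), with no error shown. The 4 roles of macrophage genes have their epididymal medians above 0 and the other 2 depots below it. So do the further macrophage, monocyte, and fibroblast and precursor lists, while all genes lie between -0.03 and 0.04.

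Promoter sequences were examined because PU.1, encoded by the core gene Spi1, is known to bind purine-rich sites with the core GAGGAA in macrophage promoters. RefSeq promoter windows of build GRCm38.p6, 250 bases before to 50 after a start, were matched by symbol for 27 of the 35 genes, in 32 windows. GAGGAA on either strand was present in 17 of 32 windows (53.1%), against 28.3% of all 32851 windows of the same length. The longer form GAGGAAGT was present in 1 window (3.12%), against 3.2% of all windows. GGAAGT, which can overlap both, was present in 37.5% against 23.8%, and the AP-1 site TGACTCA in 15.6% against 5.2%. Allowing any base in the middle, TGANTCA gave 21.9% against 7.81%, while the E-box motifs TCANGTGA and CACGTG of lysosomal regulators were each in 1 window, 3.12% against 4.18% and 7.15%. These were all 7 motifs searched, on both strands, and a match is a description of the letters.

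Shown are the windows of Cd68 (chr11:69666121-69666420, minus strand) as a core gene, of the subcutaneous pair Timd4 (chr11:46810549-46810848, plus strand) and Marco (chr1:120504975-120505274, minus strand), of Fcgr1 (chr3:96293920-96294219, minus strand), which had the largest KO difference, and of Gpnmb (chr6:49036268-49036567, plus strand), lower in every KO array. Capitals mark GAGGAA and TGACTCA on either strand, a pair picked after the counts were seen, and the sequences run 5′ to 3′ on the strand of the gene.
Cd68: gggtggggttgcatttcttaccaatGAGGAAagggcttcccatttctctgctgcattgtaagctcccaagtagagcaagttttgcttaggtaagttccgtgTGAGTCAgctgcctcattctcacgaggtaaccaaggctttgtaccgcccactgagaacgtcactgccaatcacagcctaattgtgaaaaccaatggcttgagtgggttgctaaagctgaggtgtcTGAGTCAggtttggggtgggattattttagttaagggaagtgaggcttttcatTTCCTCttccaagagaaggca
Timd4: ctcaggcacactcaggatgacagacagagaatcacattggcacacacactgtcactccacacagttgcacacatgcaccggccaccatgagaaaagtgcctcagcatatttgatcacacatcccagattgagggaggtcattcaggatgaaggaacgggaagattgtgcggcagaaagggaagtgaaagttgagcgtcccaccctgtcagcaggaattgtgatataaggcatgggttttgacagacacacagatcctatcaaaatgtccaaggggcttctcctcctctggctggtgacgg
Marco: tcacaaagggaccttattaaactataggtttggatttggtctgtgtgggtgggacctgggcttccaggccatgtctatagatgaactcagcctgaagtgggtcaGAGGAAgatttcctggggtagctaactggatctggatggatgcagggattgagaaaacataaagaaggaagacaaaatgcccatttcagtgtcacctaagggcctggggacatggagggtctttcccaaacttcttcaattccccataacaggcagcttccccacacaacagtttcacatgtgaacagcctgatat
Fcgr1: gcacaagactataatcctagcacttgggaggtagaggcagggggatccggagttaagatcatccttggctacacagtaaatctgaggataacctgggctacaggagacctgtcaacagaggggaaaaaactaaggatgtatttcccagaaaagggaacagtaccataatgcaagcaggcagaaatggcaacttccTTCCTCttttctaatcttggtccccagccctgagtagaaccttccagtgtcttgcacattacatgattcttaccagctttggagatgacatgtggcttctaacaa
Gpnmb: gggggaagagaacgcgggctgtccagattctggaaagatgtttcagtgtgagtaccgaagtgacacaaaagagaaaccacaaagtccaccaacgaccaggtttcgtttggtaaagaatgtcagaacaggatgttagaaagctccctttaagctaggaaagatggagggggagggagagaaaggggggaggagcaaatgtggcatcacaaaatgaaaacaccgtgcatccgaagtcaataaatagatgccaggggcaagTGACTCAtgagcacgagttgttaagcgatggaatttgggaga
Cd68 held 2 copies of each motif, Marco and Fcgr1 1 GAGGAA each, Gpnmb 1 TGACTCA and Timd4 neither.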

How the data were processed

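Total RNA labelled with biotin was hybridised to 6 Affymetrix arrays. The deposited intensity values came from MAS5 and Affymetrix Expression Console, per the submitters' processing notes, with versions not given in the sources used here. Their 2%-trimmed mean was 500.0 on each array, so differences in RNA yield between samples are lost. Leaving out control spots, 45037 probe sets remained, of which 34945 carried 1 gene symbol, 932 several and 9160 none, and all 35 members matched a RefSeq gene table of GRCm38.p6 by gene identifier.

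Signals under a floor, the median over arrays of the 40th percentile without controls, were raised to it and put on the log2 scale. Measured in a depot means that either array exceeded the floor, and folds against an array under the floor are bounds. Genes exceeding it on 3 or more arrays entered limma (version 3.58.1, R 4.3.3), with depot and genotype as terms, Benjamini-Hochberg adjustment over all 13233 genes and a threshold of 0.05. The WT and KO array of a depot stand in for replicates in depot contrasts, and the depots in the genotype contrast, so p-values do not measure the spread between mice. Fits were tested on simulated data.

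Named were all members, the 3 brightest genes of other lists, passing genes of the 2 further macrophage lists, and Kdm4b, limited here to those a result turns on. Members and lists were chosen with earlier results of these data known. Alternatives were other scalings, floors, filters, probe set choices, fold thresholds, an intensity trend, and fits without single arrays or depots. The test of whether the genotype difference differed between the white depots, and leaving out Timd4 and Marco, were chosen after seeing the data. Scripts ran in Python 3.11.15 with pandas 2.3.3 and numpy 2.4.6, and figures were drawn with matplotlib 3.10.9.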

Additional observations from a re-analysis of the deposited data

How the results depend on the processing

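The fall of members in brown fat held for 29 to 35 genes under every alternative run, with medians of -2.28 with the floor at the 60th percentile, -2.16 with the mean of all probe sets, and -2.57 to -2.30 with 1 array left out; 1 gene, Laptm5, rose (0.43) without probe sets that can cross-hybridise. Over the members and 4 other genes named there, 566 of 577 alternative values kept their call, 10 lost it (Trem2 under 4 alternatives, Spi1 under 2, and Itgam, Cd14, Fcgr1 and Lgmn under 1 each) and 1 reversed. In subcutaneous against epididymal fat, members that rose numbered 4 after quantile normalization, 1 (Marco, with Timd4 lost) and 5 with floors at the 20th and 60th percentiles, 0 with no filter, 6 with an intensity trend, 1 to 3 with 1 array left out and 0 without Timd4 and Marco. Members that fell numbered 3 after median centring, 1 with the 60th percentile floor, 2 with an intensity trend and 0 to 1 with 1 array left out. The median there was -0.26 after median centring and -0.18 to 0.41 with 1 array left out. For genotype over depots the median of -0.15 was -0.34 without the epididymal and 0.025 without the subcutaneous arrays.

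Within depots, the median in epididymal fat was 0.36 after median centring. In subcutaneous fat it was -0.61 after median centring, -0.30 with the mean of all probe sets and -0.32 without cross-hybridising probe sets, and in brown fat -0.084 after median centring. Members higher in KO subcutaneous fat numbered 0 and 2 after median centring and without cross-hybridising probe sets, and in brown fat 5 with the 60th percentile floor. At least 2-fold lower in subcutaneous fat were 2 genes after quantile normalization, median centring and with the 20th percentile floor, 0 with the mean of all probe sets, 7 at 1.5-fold and 0 at 3-fold. In brown fat 1 was with the 20th percentile floor. At 1.5-fold 1 was higher and 1 lower in epididymal, and 2 higher and 6 lower in brown fat. Genes higher in KO epididymal and lower in KO subcutaneous fat numbered 23 to 31 over the alternatives. Limma called 0 members for genotype, over depots or between them, under each alternative. The causes were not tested. No paired analysis was possible because the labels carry no replicate numbers and each depot and genotype has 1 array. Weak signals near the floor limit Trem2, Itgam, Marco, Gpnmb, Fcgr1, Timd4 and Itgax in brown fat. For Fcgr1, Timd4 and Itgax 1 brown array lay under the floor, so their brown minus white differences are bounds too.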
